A study of Mus musculus with 2 samples.

Results

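The p38 kinase Mapk14, the kinases directly above and below it, and transcription factors of the NFAT and ATF/CREB families were examined in tumour-infiltrating monocytic myeloid-derived suppressor cells (M-MDSCs). All non-control probes whose annotated RefSeq transcript belonged to Mapk14, Map2k3, Map2k6, Mapkapk2, Nfat5, Nfatc1, Nfatc2, Atf2, Atf7 or Creb1 were taken. This gave 16 of 39413 probes, for 9 of the 10 listed genes and of 20653 named genes in all. Atf7 had no matched probe and was not analysed here. The cells came from tumours of 4T1, a BALB/c mammary carcinoma line, grown under the skin of female mice (strain written BABL/c in the labels) that had each received 1000000 tumour cells. For 16 days the normal-salt (NSD) group was given chow with 0.4% NaCl and tap water, and the high-salt (HSD) group chow with 4% NaCl and water with 1% NaCl. M-MDSCs were isolated with a magnetic kit and equal numbers of cells were mixed within a group, so each diet is 1 pooled RNA on 1 Agilent single-dye (Cy3) array, and no test of the diet and no p-value could be given. Every value below therefore compares 2 pools, not 2 populations of mice. In such bulk RNA, fewer cells of a type and less RNA per cell cannot be told apart.

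Map2k3 and Map2k6 encode MKK3 and MKK6, dual-specificity kinases that phosphorylate and activate p38α, the product of Mapk14. Active p38 in turn activates MK2 (Mapkapk2) and reaches transcription factors such as ATF2 and CREB, either directly or through other kinases. NFAT5 (TonEBP) is the factor by which cells exposed to hypertonic medium switch on genes of osmolyte uptake. It shares the DNA-binding domain of the NFATc proteins but not their control by calcineurin. In myeloid cells p38 is best known for its part in cytokine production. These are events of phosphorylation and DNA binding, whereas an array measures only the amount of transcript.

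The starts of the genes on which the results turn are given as reference, read from RefSeq on GRCm38.p6 and ending where the annotated gene begins. The element TGGAAA, the core bound by NFAT5 and by the NFATc proteins, and the palindrome TGACGTCA, the full cAMP response element (CRE) bound by CREB and ATF2 dimers, were looked for on both strands. Capitals mark a match. Slc6a12, the betaine transporter and a textbook NFAT5 target, is added. It had the largest difference of the NFAT5 targets read below (log2 fold change 4.12), and no window of another target is shown.

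Nfat5 (chr8:107293220-107293434, + strand): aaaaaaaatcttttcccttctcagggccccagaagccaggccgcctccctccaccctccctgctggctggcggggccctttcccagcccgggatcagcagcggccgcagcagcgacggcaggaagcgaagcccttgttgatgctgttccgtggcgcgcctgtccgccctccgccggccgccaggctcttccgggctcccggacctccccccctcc
Atf2 (chr2:73892678-73892889, - strand): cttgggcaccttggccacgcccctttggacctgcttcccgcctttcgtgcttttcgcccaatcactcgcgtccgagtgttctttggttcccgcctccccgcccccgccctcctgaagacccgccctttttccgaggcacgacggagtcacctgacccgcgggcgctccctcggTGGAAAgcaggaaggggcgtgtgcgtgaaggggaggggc
Creb1 (chr1:64532554-64532793, + strand): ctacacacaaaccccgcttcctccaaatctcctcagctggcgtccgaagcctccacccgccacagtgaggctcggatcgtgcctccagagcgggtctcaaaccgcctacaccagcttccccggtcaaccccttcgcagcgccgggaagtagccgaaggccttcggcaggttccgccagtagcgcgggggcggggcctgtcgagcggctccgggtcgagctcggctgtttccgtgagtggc
Slc6a12 (chr6:121342324-121342573, + strand): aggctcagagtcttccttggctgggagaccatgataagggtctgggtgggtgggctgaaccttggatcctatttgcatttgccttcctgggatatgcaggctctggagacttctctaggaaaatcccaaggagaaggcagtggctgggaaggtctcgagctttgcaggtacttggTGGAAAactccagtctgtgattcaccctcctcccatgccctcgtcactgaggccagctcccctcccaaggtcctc

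The Atf2 and Slc6a12 windows each held 1 TGGAAA, and those of Nfat5 and Creb1 held neither element. Among 9 promoter windows of the listed genes, with 250 bases before the start and without Nfatc1, 2 held TGGAAA (Atf2 and Nfatc2) and 0 held the CRE. Over 32851 mouse windows of the same length, TGGAAA was found in 18.6% and the CRE in 1.55%. A match only describes the letters, and a longer NFAT5 or CRE-like element can lie outside a window.

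Signals are intensities after the scanner software's correction. The log2 fold change is HSD minus NSD after each array had been divided by its 75th percentile, 252 units with the NSD and 233 with the HSD. Both arrays measured 15 of the 16 probes well above background, and the last one, of Nfatc2, was dim on both. Of the 15, 11 had a positive and 4 a negative log2 fold change. At 1.5-fold, 2 probes were higher with the HSD (1 of Atf2, 1 of Creb1) and 0 were lower. The same rule called 10.2% of 29599 probes higher and 8.92% lower, so the count of members stands near the background. Represented by its brightest probe, 1 of the 9 genes (Creb1) was at least 1.5-fold higher and 0 were lower, against 9.86% and 10.3% of 16316 genes. The median over the 9 genes was 0.41, and that over all genes was 0.05, with 54.3% of all genes above 0.

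**Figure D1:**
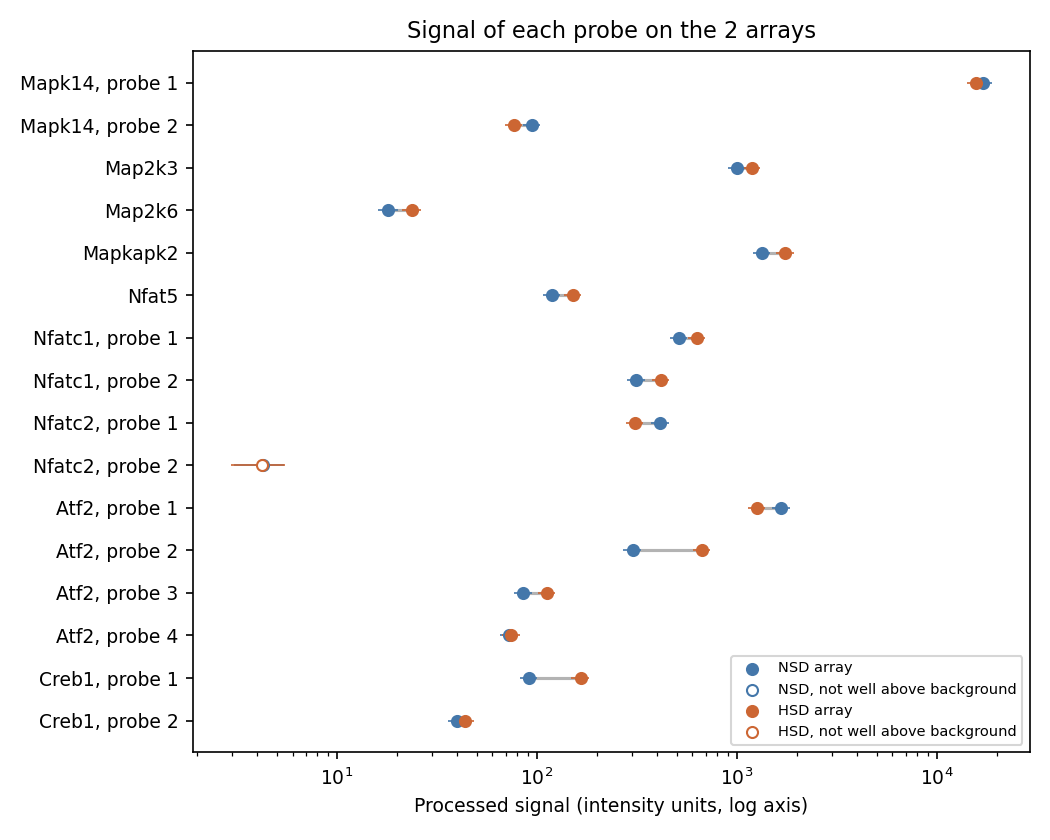
Processed signal (intensity units, log axis) of each of the 16 probes under the NSD and the HSD, with bars of the software's error of the spot. Open symbols mark the Nfatc2 probe that stood too near background on both arrays, and the widest gaps are those of Atf2 probe 2 and Creb1 probe 1.

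Each member probe had 1 spot per array, so its error had to be taken from elsewhere. The software gave an error of 10.0 to 11.5% for the 15 measured probes, which is about 0.20 to 0.23 on the log2 scale for a difference. By this measure 3 of the 15 differences were within 1 error and 8 were more than 2 errors from 0. The same count over all probes was not made. The median absolute log2 fold change of all probes well above background on both arrays was 0.26. Differences above 0.20 were thus common, and the count of 8 is no result about these genes. Probes of like signal that were spotted at least 5 times differed among their spots by an SD of 0.06 to 0.15 (log2). Neither error holds the spread between mice or between RNA preparations.

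The kinases above p38 were both somewhat higher with the HSD. The Map2k3 signal was 1006 with the NSD and 1190 with the HSD, a log2 fold change of 0.36. Map2k6 was dim on both arrays, at 18.1 and 23.7, with a log2 fold change of 0.50. Both stayed below 1.5-fold. With another background correction (normexp, which adds an offset to every spot) the Map2k6 difference was 0.22.

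Mapk14 itself showed no increase on either of its probes, which carry the same transcript annotation. The first read 17112 and 15731, which after scaling was a log2 fold change of -0.01, and the second read 94.8 and 76.8, or -0.19. The sign of the first probe was not settled, since it ranged from -0.14 with cyclic loess to 0.04 without the spatial correction of the spots. Mapkapk2, the kinase through which p38 stabilises cytokine transcripts, read 1339 and 1747, a log2 fold change of 0.50. Transcripts of Map2k3, Map2k6 and Mapkapk2 were thus higher on the HSD array by 1.28- to 1.42-fold, while that of Mapk14 was within the error of a spot. Other kinases above and below p38 went both ways, such as Mapkapk3 (0.34) and Map3k4 (-0.37).

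**Figure D2:**
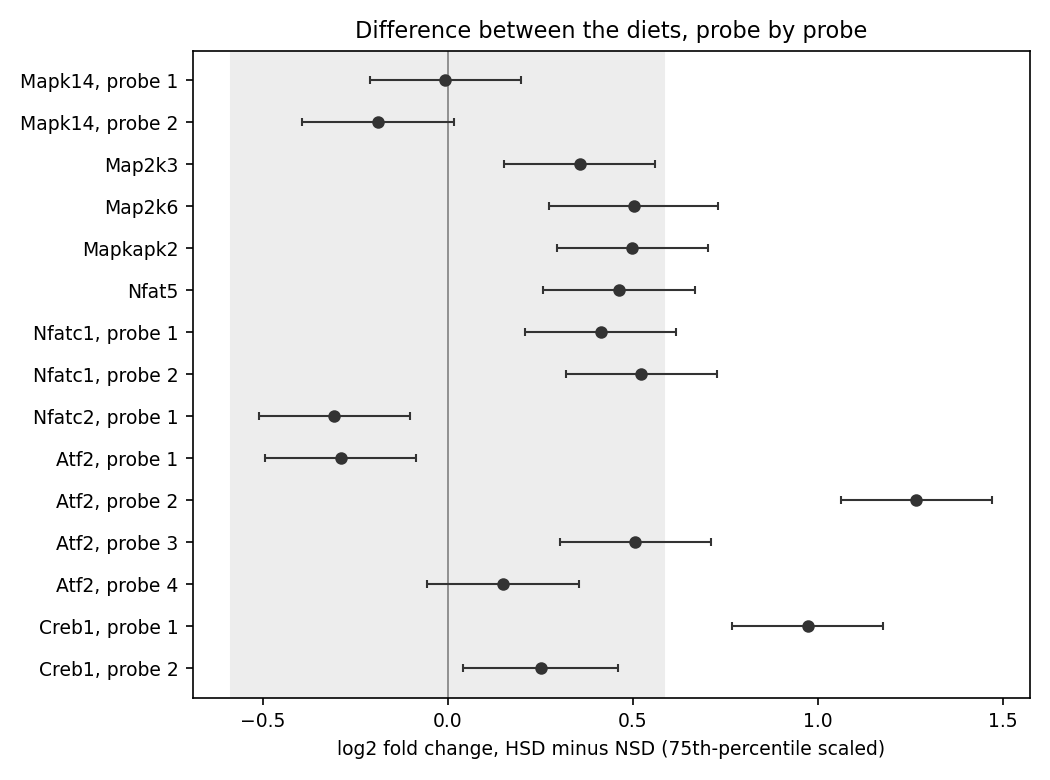
log2 fold change (HSD minus NSD, arrays scaled to their 75th percentile) of the 15 measured probes, with bars of 1 software error. The grey band spans differences below 1.5-fold, and only Atf2 probe 2 (1.27) and Creb1 probe 1 (0.97) lie outside it.

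Nfat5 had a single probe. Its processed signal was 118.7 with the NSD and 151.1 with the HSD, a log2 fold change of 0.46. The unscaled ratio changed with the software's correction of the spot for its position. The median pixel of the spot was 147 on both arrays and the local background was 16 on both, and after background subtraction alone the signals were 128 and 132, a ratio of 1.03. The multiplicative correction for position then lowered the NSD value by a factor of 0.929 and raised the HSD value by a factor of 1.15.

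The Nfat5 spot lies in the last of the 85 columns of the array, and that edge read low with the HSD. Before correction, the 198 bright spots of this column had a median log2 ratio of HSD over NSD of -0.67, whereas the median over all 22078 such spots was -0.05. After correction the column still stood at -0.42, and no other column had a median below -0.17. Set against the other spots of its column, the Nfat5 log2 ratio was 0.77 after and 0.71 before correction. Set against its 200 nearest bright spots, whose medians were -0.17 and -0.35, it was 0.51 and 0.40. Thus the HSD over NSD ratio of Nfat5 was above the median ratio of its surroundings with either signal, by amounts that differed with the reference spots. The spread of the ratios among those spots was not measured. Scaled to the 75th percentile of the array, its log2 fold change was 0.18 without the spatial correction. With normexp, which both leaves out that correction and adds an offset, it was 0.11. One spot per array at an edge gives no firmer value.

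**Figure D3:**
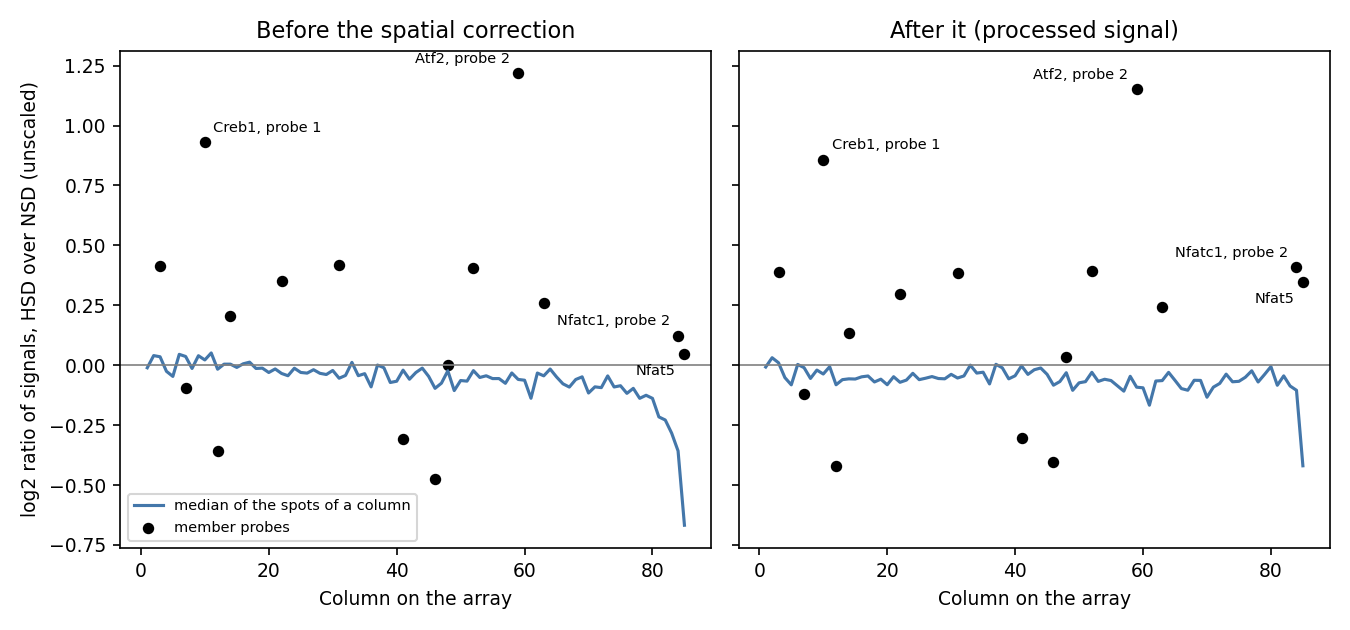
log2 ratio of HSD over NSD signals (unscaled) against the column on the array, before (left) and after (right) the software's correction for position. The line is the median of the bright spots of a column and falls to -0.67 and -0.42 in column 85, and points are the 15 measured member probes, with Nfat5 in column 85 and Nfatc1 probe 2 in column 84.

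The correction bears on the other probes much less. Between spots of the same probe, for 237 probes spotted at least 5 times, the median SD (log2) was 0.13 before and 0.07 after correction with the NSD, and 0.16 and 0.08 with the HSD. Among the members, it moved the value by more than the error of a spot only for Nfat5 and for the second Nfatc1 probe, in column 84. That Nfatc1 probe went from 329 and 358 (ratio 1.09) before to 315 and 418 (ratio 1.33) after correction.

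The calcineurin-dependent relatives did not move as a group. Nfatc1, a factor of lymphocytes and of osteoclast formation, was higher on both of its probes, which are annotated to different transcripts. Its first probe, away from the edge, read 512 and 630, a log2 fold change of 0.41, and the second had one of 0.52 (0.25 without the spatial correction). Nfatc2 was lower, with 414 and 309 on its one measured probe, a log2 fold change of -0.31. The other Nfatc2 probe, annotated to another transcript, read 4.26 and 4.22, with neither value well above background. Of the 2 further calcineurin-dependent paralogues, Nfatc4 was nearly level at 197 and 180 (-0.02). Nfatc3 read 155 and 153 (0.10) on its brighter probe, and its other probe was at 0.29.

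Atf2, a basic leucine zipper factor that p38 phosphorylates, had 4 probes under the same transcript, and these differed in sign. The brightest read 1669 with the NSD and 1262 with the HSD, a log2 fold change of -0.29. The second read 301 and 669, or 1.27, which was the largest difference among all member probes and remained between 1.20 and 1.35 under every alternative. The third read 85.6 and 112, or 0.51, and the fourth 72.8 and 74.6, or 0.15. The distance between the first and the second probe, 1 lower and 1 more than 2-fold higher, exceeds both errors given above. The stretches of transcript that the probes match are not given in the sources used here, so exon, intron and UTR could not be assigned, and the Atf2 probes cannot be read as 1 level.

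Creb1, the cAMP response element binding protein, also had probes that differed in size. The first read 91.2 and 165, a log2 fold change of 0.97, and the second 39.9 and 43.9, or 0.25. The first was at least 1.5-fold higher under each alternative, the lowest value being 0.74 with normexp. Of the close relatives, Atf1 read 1978 and 1814 (-0.01). Crem read 112 and 128 (0.31) on its brightest probe, which was the highest of its 3, and the lowest was at 0.01.

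**Figure D4:**
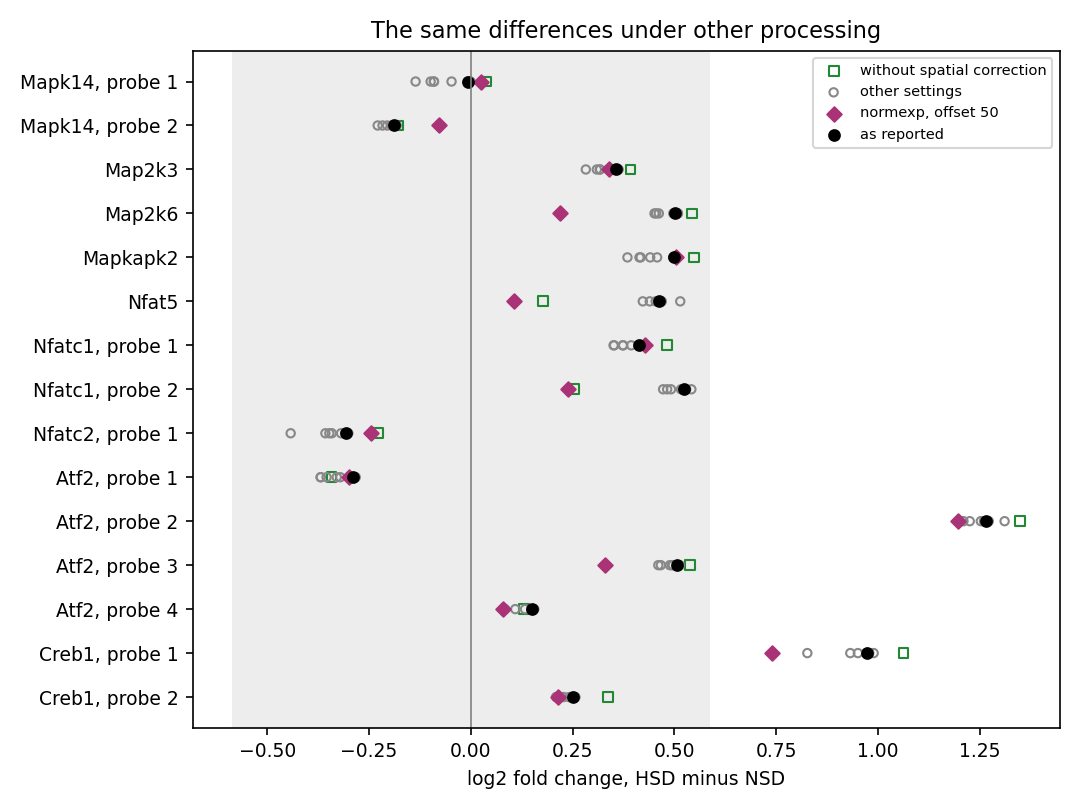
log2 fold change (HSD minus NSD) of the 15 measured probes as reported (black) and under the other processing settings. Normexp (diamonds) and the signal without spatial correction (squares) bring Nfat5 to 0.11 and 0.18 and Nfatc1 probe 2 to 0.24 and 0.25, whereas Atf2 probe 2 and Creb1 probe 1 remain above the grey band of differences below 1.5-fold.

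Further genes of these pathways were read from 5 lists, with 1 probe a gene. Of 105 listed genes 99 could be measured, of which 11 were at least 1.5-fold higher and 5 lower, where the same rule called 9.86% of all genes higher and 10.3% lower. The count of higher genes, and that of the p38 list, thus stands near the background. In the p38 list, 25 of 36 genes were higher in sign, where 54.3% of all genes were above 0. By the brightest probes, 4 were at least 1.5-fold higher and 0 lower, with a median of 0.23. For some genes the sign depended on the probe. Mef2a was at -0.42 on its brightest probe and at 0.88 on the other, and Mef2d at 0.27 and -0.80. The 4 genes counted as at least 1.5-fold higher had dim or moderate probes. Mapk11 (p38β) read 31.7 and 68.1, a log2 fold change of 1.22. Mapk12 (p38γ) read 21.5 and 37.2, or 0.91, and Map3k6 (ASK2), a stress kinase above MKK3 and MKK6, 26.5 and 46.1, or 0.92. Dusp16, a phosphatase of JNK and p38, read 238 and 415, or 0.92, and Mapk13 (p38δ), below 1.5-fold, 4072 and 5119, or 0.44. With normexp, Mapk11, Mapk12 and Map3k6 were at 0.45, 0.33 and 0.40, under 1.5-fold, and Dusp16 remained above it at 0.83.

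The calcineurin list had a median of -0.02 over 15 measured of 17 genes, and 1 gene was past 1.5-fold. This was Dyrk1a, a kinase that promotes the export of NFATc proteins from the nucleus, at 212 and 295 or 0.59, which lies at the threshold. Of 14 NFAT5 targets 13 were measured, 11 with a positive sign, 4 at least 1.5-fold higher and 0 lower, with a median of 0.33, where 54.3% of all genes were above 0 and 9.86% were at least 1.5-fold higher. Those 4 were Slc6a12 (53.5 and 859, log2 fold change 4.12), the inducible nitric oxide synthase Nos2 (22.8 and 185, or 3.13), the amino acid transporter Slc38a2 (2293 and 5519, or 1.38) and Tnf (688 and 1299, or 1.03). The study had picked out Nos2 and Tnf from these arrays, so their values here are no independent evidence of direction. It also reported both as higher outside the arrays, NOS2 by qRT-PCR and TNF-α by ELISA of cultured M-MDSCs. With normexp, Slc6a12 was at 3.0 and Nos2 at 1.60, still past 1.5-fold. Other established targets were on both sides, among them the taurine transporter Slc6a6 at 12321 and 14838 (0.38), the myo-inositol transporter Slc5a3 at 13.2 and 12.3 (0.01), the aldose reductase gene Akr1b3 at 1939 and 1302 (-0.46) and the chaperone gene Hspa4l at 452 and 320 (-0.39). Of the 11 positive genes, Slc5a3, Sgk1 (0.05), Aqp2 (0.13) and Slc14a2 (0.16) differed by less than 0.20, the smallest software error of a member probe. The other Slc14a2 probe was at -0.46.

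**Figure D5:**
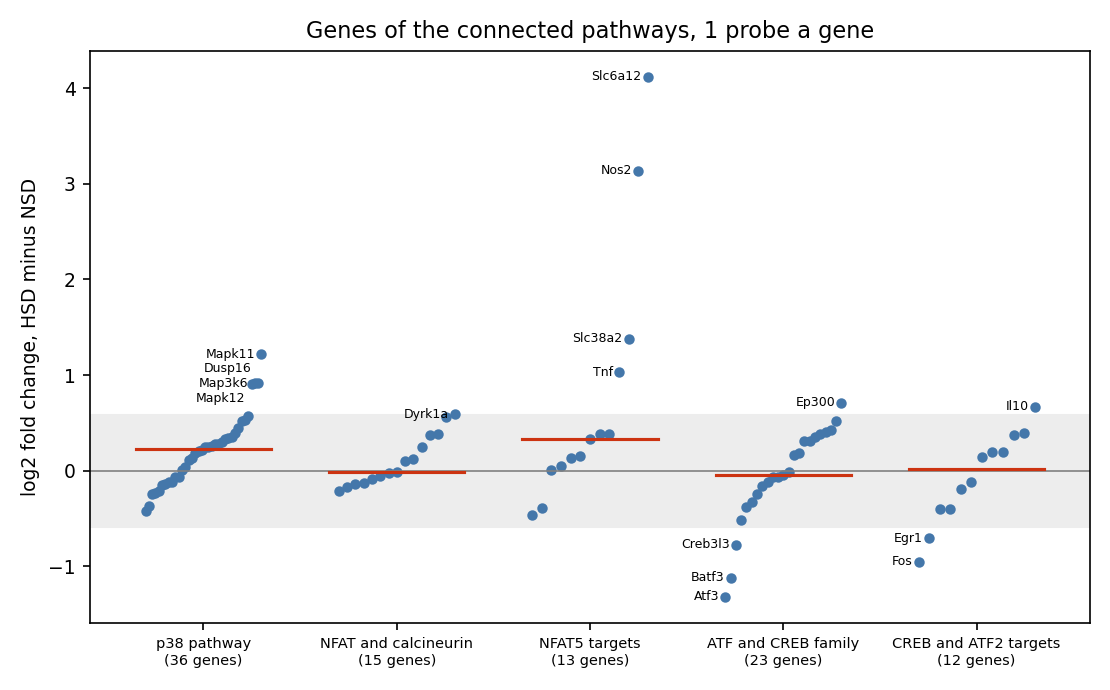
log2 fold change (HSD minus NSD) of each measured gene of the 5 pathway lists, 1 probe a gene, with the list's median as a bar. The grey band spans differences below 1.5-fold, and labelled genes lie outside it, from Atf3 at -1.32 to Slc6a12 at 4.12.

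Within the ATF/CREB family and its cofactors, 1 of 23 genes was at least 1.5-fold higher and 3 were lower, with a median of -0.04. The same rule called 9.86% of all genes higher and 10.3% lower. This count, and that of the targets below, thus stands near the background. The 1 higher gene of the family list was Ep300, a histone acetyltransferase that CREB recruits, at 1246 and 1882 (0.71). Atf3, a stress-induced repressor, read 587 and 217, a log2 fold change of -1.32. Batf3, required for a lineage of dendritic cells, read 47.9 and 20.4 (-1.12), and Creb3l3 116 and 62.5 (-0.78). With normexp, Batf3 and Creb3l3 were at -0.41 and -0.36. Among 12 measured of 15 CREB and ATF2 target genes, 1 was at least 1.5-fold higher and 2 were lower, with a median of 0.01. Il10 was dim at 14.1 and 20.7 (0.67, and 0.21 with normexp), and the immediate-early genes Fos and Egr1 read 5514 and 2633 (-0.95) and 773 and 437 (-0.71).

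Markers of cell types were read on the same arrays, where 9.86% of all genes were at least 1.5-fold higher and 10.3% lower. In the monocyte and M-MDSC list, Itgam (31564 and 31043) and Ly6c1 (51811 and 48478) were bright with both diets. Itgam encodes CD11b, by which the study defined granulocytic as well as monocytic suppressor cells. The other Ly6c1 probe was at -0.42. Of the 8 matched genes of this list, 2 were at least 1.5-fold higher, Cd14 (0.82) and Cx3cr1 (0.78). Another 2 were lower, Ccr2 at 259 and 139 (-0.78) and Fcgr1 at 305 and 21.9 (-3.68). Also bright were genes of the neutrophil list, with a summed signal of 261000 and 254000. Its 9 of 9 matched genes were detected under both diets, whereas Ly6g and Ly6c2 were not matched. Of these 9, 0 were at least 1.5-fold higher and 1 was lower, Mpo at 3536 and 1723 (-0.92). The macrophage list was lower with the HSD in 6 of 7 genes, 5 of them by at least 1.5-fold, with a summed signal of 14200 and 8680. Most of that sum was Apoe (7119 and 4337) and Adgre1 (6723 and 4252, not past 1.5-fold). The other genes past 1.5-fold were dim with the HSD, namely Mrc1 (134 and 5.49), Mertk (95.9 and 15.4), C1qc (52.6 and 5.61) and C1qa (12.2 and 4.01). C1qa was not well above background with the HSD. The B cell list was higher in sign in 5 of 5 genes, none by 1.5-fold, with a median of 0.40 and a summed signal of 6130 and 7130. The T and NK cell list had a median of 0.06 over 9 measured genes, with a summed signal of 3540 and 3940. Of these, 0 were at least 1.5-fold higher and 1 was lower, Cd3e (-1.09). The epithelial list, for the 4T1 cells, was higher in sign in 4 of 5 measured genes, 3 of them by at least 1.5-fold, with a median of 0.61 and a summed signal of 111 and 116. Those 3 were dim: Epcam read 14.5 and 21.8, Krt8 8.68 and 12.2, and Krt18 15.9 and 25.0. The fibroblast list had a median of -0.55 and a summed signal of 166 and 143, with 1 gene at least 1.5-fold higher and 2 lower. The platelet and erythroid list had a median of -0.67, with 2 genes at least 1.5-fold lower and dim platelet genes. Its sum, 10300 and 10900, was nearly all Hba-a1 (10273 and 10843). The dendritic cell list had a median of 0.02, with 2 genes at least 1.5-fold higher and 1 lower. Most of its sum, 14700 and 14200, was Siglech (13705 and 13214). The endothelial list had a median of 0.06 and a sum of 262 and 285. The part of such cells in the differences of the kinases and factors was not tested.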

How the data were processed

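RNA of pooled tumour M-MDSCs was hybridised to 1 Agilent Mouse GE v2 array per diet, both on the same slide. The authors deposited scanner output whose processed signal, an intensity, had been corrected for background and for position by Agilent Feature Extraction 11.0.1.1, with no normalization between arrays. Spot, background and background-subtracted intensities of the same output served the alternatives. The authors also deposited normalized log2 values, whose sorted columns differ by at most 0.0516, by a method not given in the sources used here. Control spots and outlier spots (162 NSD, 179 HSD) were left out. Log2 signals were averaged per probe, minus the 75th percentile of the array. Probes were named by unversioned RefSeq transcript (GRCm38.p6 gene table), which named 27223 probes. Genes took their brightest probe. Where 1 array was not well above background, the fold was a bound. Members, and the gene lists written from general knowledge, were chosen with earlier results of these data known. Named from each list were genes past 1.5-fold (at most 5 per direction) and the paralogues Mapk11, Mapk12, Mapk13, Nfatc3, Nfatc4, Atf1 and Crem. Slc6a6, Slc5a3, Akr1b3, Hspa4l, Sgk1, Aqp2, Slc14a2, Mapkapk3, Map3k4, Mef2a, Mef2d and the markers were named after their values were seen. Bright spots are unflagged non-control spots well above background on both arrays with at least 20 units after background subtraction. The number of arrays limits the precision. R 4.3.3, limma 3.58.1, Python 3.11.15, numpy 2.4.6 and pandas 2.3.3 were used. The calling of probes past 1.5-fold and the bounds were first tested on simulated data, and the other counts were not.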

Additional observations from a re-analysis of the deposited data

How the results depend on the processing

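No paired analysis was possible because each diet had 1 array. There were 11 alternatives set with the design and 2 chosen after seeing the data (no spatial correction, with signals below 1 set to 1, and centring on the 200 nearest spots). Of 15 measured probes 14 kept their sign under all that gave a value per probe, the exception being the first Mapk14 probe. No probe crossed 1.5-fold. With normexp the median over member genes was 0.22 in place of 0.41, and 6 pathway genes were higher and 3 lower in place of 11 and 5. With a 2-fold threshold 0 member genes and 1 member probe were higher, and 5 pathway genes were higher and 2 lower. The cause of the normexp differences was not tested. The planned mean spot signal was replaced by the median for normexp. The split of all called probes was 53.4% higher as reported, 42.4% with cyclic loess and 61.5% with no filter, and the median probe stood at 0.06, or -0.01 with cyclic loess. Dim probes such as Map2k6 and Mapk12 rest on signals close to background.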
